A study of Mus musculus with 10 samples.

Results

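The 9 tumour-derived lines of B16OVA melanoma fell into a set of 4 with high expression of stress genes (NIMM 4 and GKO-IMM 1, 2 and 3) and a set of 5 with low expression (NIMM 1, NIMM 3 and IMM 1, 2 and 8), out of 10 lines measured. The parent line, the remaining sample, belonged to neither set and served only for orientation. B16OVA is a mouse melanoma line of C57BL/6 origin, labelled B16 melanoma, which expresses ovalbumin (OVA) as a model antigen. The GKO-IMM lines came from tumours of interferon-gamma (IFN-γ) knockout mice that had been immunized with OVA, the NIMM lines from naive, non-immunized B6 mice, and the IMM lines from OVA-immunized B6 mice. All 10 lines carry OVA, each line was measured once as total RNA on an Affymetrix mouse gene array, and the labels give the source as a cell line while describing tumours. Upon injection into OVA-immunized mice, the IMM lines grew progressively and the GKO-IMM and NIMM lines did not. The sets cross that division: the stress-high set held all GKO-IMM lines and 1 NIMM line, and the stress-low set held all IMM lines and the other 2 NIMM lines. Within immunized hosts the split therefore coincided with the absence or presence of host IFN-γ, and the 2 cannot be told apart there. Only the NIMM lines occurred in both sets. The labels do not say whether a line is a single clone.

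The sets were chosen from the expression values themselves, along the main axis of variation of the 9 lines. Every difference between them given here is accordingly a description without a test. On the first principal component, which held 40.6% of the variance, NIMM 4 scored 14.7 and GKO-IMM 1, 2 and 3 scored 11.1, 9.58 and 10.9, against -9.89 and -7.86 in NIMM 1 and 3 and -10.4, -9.22 and -8.91 in IMM 1, 2 and 8. GKO-IMM 2 was thus the stress-high line nearest the gap and NIMM 3 the stress-low line nearest to it. Without the genes of any list described here, the first component held 36.4% of the variance over 15817 genes and separated the same lines. Since the sets were drawn along this axis and most genes remained, this says little about the part of the listed genes. The second component held 15.3% and placed the 3 NIMM lines, at -5.43, -10.1 and -9.90 for NIMM 4, 1 and 3, apart from all immunized-host lines, which scored 0.21 or more.

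Intensities are linear array values per gene, and differences are mean log2 intensity of the stress-high lines minus that of the stress-low lines. Array medians lay between 31.9 and 32.5, so intensities of about 30 are close to background, and 16352 genes with a mean intensity above 26.7 were considered. The 7 melanocyte markers read 565 to 8362 in every line, summing to 26867 to 27858 in stress-high and 27138 to 29293 in stress-low lines. The 7 leukocyte markers read 20.3 to 34.9 and the 4 endothelial markers 23.9 to 38.1. Leukocyte markers summed to 182 to 192 in the stress-high lines and 177 to 194 in the stress-low lines, and endothelial markers to 122 to 125 in the stress-high lines and 119 to 127 in the stress-low lines. The 6 fibroblast and mural markers summed to 256 to 304 in the stress-high lines and 265 to 297 in the stress-low lines. Of these, 3 (Dcn, Lum and Rgs5) read at most 24.7, whereas Acta2 read 51.3 to 63.2 over all 10 lines. Pdgfrb read 100.5 to 155 in the stress-high lines and 109.9 to 135 in the stress-low lines, against 43.8 in the parent. The 3 keratinocyte and muscle markers with a row of their own summed to 113 to 117 in the stress-high lines and 113 to 139 in the stress-low lines, with Acta1 at 48.9 to 71.4. The part of such cells in the differences below was not tested.

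Several of the genes with the largest differences, among them Trib3, Chac1, Nupr1 and Atf5, belong to the integrated stress response. In this pathway, kinases that sense amino acid shortage, misfolded protein in the endoplasmic reticulum (ER), heme deficiency or double-stranded RNA phosphorylate the initiation factor eIF2, which slows general translation while favouring translation of the transcription factor ATF4. ATF4, with partners such as CHOP (Ddit3) and C/EBP proteins, switches on genes for amino acid uptake and synthesis, tRNA charging and redox balance, and feedback inhibitors such as Trib3. NRF2 controls an overlapping antioxidant programme that includes the cystine importer Slc7a11, and in tumours both programmes are known for supporting growth under nutrient and oxidative stress.

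The stress-high lines expressed 17 of 21 genes at 1.62 to 5.48 times the level of the stress-low lines in 1 list. This list holds ATF4 targets and integrated stress response genes, Atf4 itself included. Amino acid transporters, part of the cytosolic tRNA synthetases, mitochondrial one-carbon enzymes and antioxidant genes were higher with these 17 genes. Replication and mitosis genes were lower, most by less than 0.5 on the log2 scale. Of the 16352 genes, 156 (0.954%) were higher in all 4 stress-high lines than in all 5 stress-low lines with a mean log2 difference of at least 0.5 (1.41-fold), and 53 (0.324%) were lower by the same rule. At a difference of at least 1 (2-fold) the numbers were 33 (0.202%) and 3 (0.0183%). Without a minimum difference, 1103 genes (6.75%) were higher without overlap and 1053 (6.44%) were lower. These shares are the comparison for each list count without overlap given below. The median difference over all genes was -0.005. Of the 156 higher genes 53 belonged to a gene list described here, and of the 53 lower genes 7 did. Of all 16352 genes, 15817 belonged to none, and the lists were chosen with earlier results of these data known.

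Trib3, a pseudokinase that feeds back on ATF4 and CHOP, had the largest difference. It read 753 in NIMM 4 and 490.1, 459 and 473 in GKO-IMM 1, 2 and 3, against 68.7 and 76.6 in NIMM 1 and 3 and 109.8, 83.8 and 178 in IMM 1, 2 and 8; the mean log2 intensity was 9.05 ± 0.34 in the stress-high lines and 6.60 ± 0.55 in the stress-low lines (SD, n = 4 and 5). The sets lay 5.48-fold apart (log2 difference 2.45), with NIMM 4 above the GKO-IMM lines and IMM 8 the highest stress-low line. Chac1, which degrades glutathione and is a target of ATF4 and CHOP, read 405 in NIMM 4 and 455, 396 and 437 in GKO-IMM 1, 2 and 3, against 74.1 and 80.5 in NIMM 1 and 3 and 105, 88.0 and 121 in IMM 1, 2 and 8, a difference of 2.20. Here the 4 stress-high lines were close together, and NIMM 4 did not exceed GKO-IMM 1 or 3. Atf4 itself, whose product is controlled mainly at translation, was also higher at the RNA level (855 in NIMM 4 and 793, 689 and 762 in GKO-IMM 1, 2 and 3, against 276 and 325 in NIMM 1 and 3 and 348, 399 and 425 in IMM 1, 2 and 8; log2 difference 1.14), and the mean log2 intensity was 9.59 ± 0.13 in the stress-high lines and 8.45 ± 0.25 in the stress-low lines (SD, n = 4 and 5). The stress-low lines were graded for Atf4, NIMM 1 being the lowest and IMM 8 the highest, but none reached GKO-IMM 2.

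**Figure D1:**
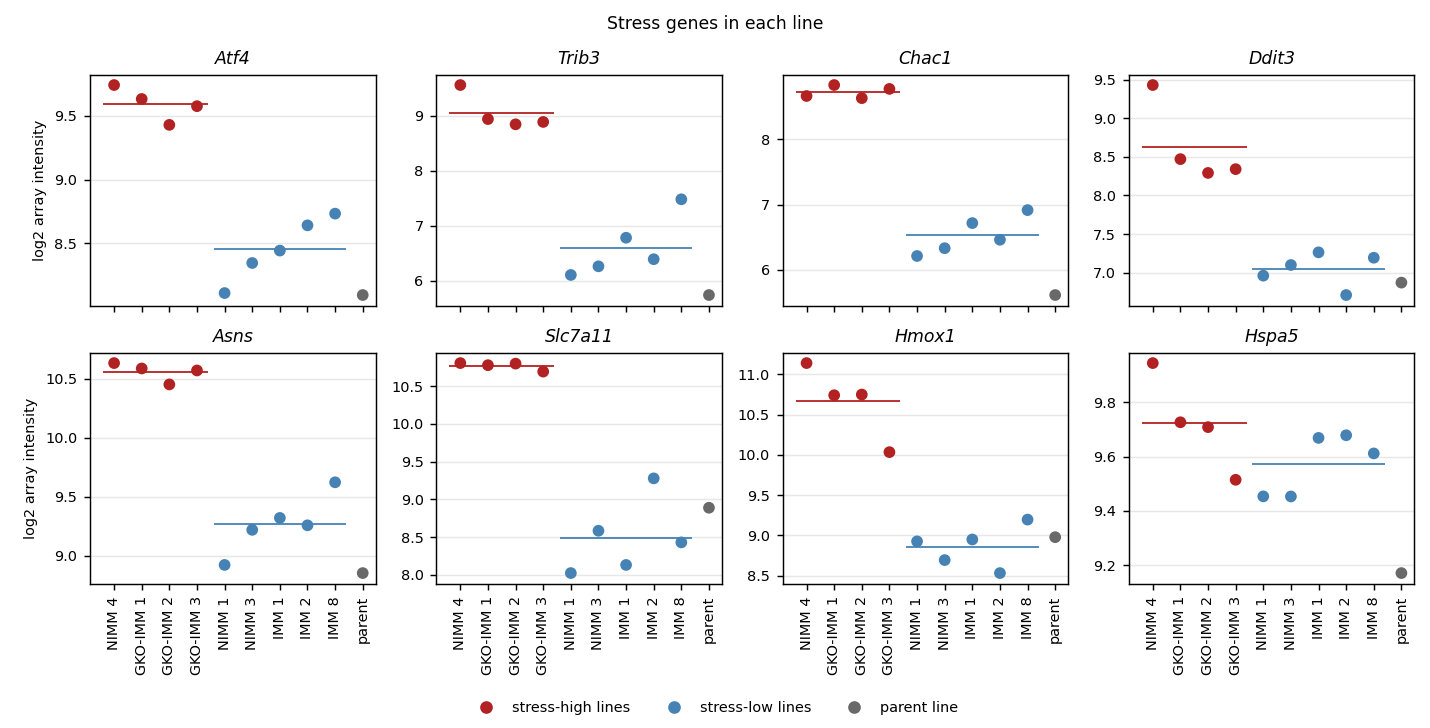
Log2 array intensity of 8 stress genes in each line (1 array per line; each panel has its own scale). Red points are the 4 stress-high lines, blue points the 5 stress-low lines and the grey point the parent line, and horizontal lines are set means. Only Hspa5, an ER chaperone gene, shows overlap between the sets.

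Of 22 genes in the list of ATF4 targets and integrated stress response genes, 21 were above the filter, and 17 of these were higher without overlap (against 6.75% of all genes) and 0 lower. All 17 also met the minimum of 0.5. The list's median difference was 1.08, against -0.005 over all genes. The transcriptional partners in the list were higher as well: Ddit3, which encodes the pro-apoptotic factor CHOP, read 690.0 in NIMM 4 and 355, 313 and 324 in GKO-IMM 1, 2 and 3, against 125 and 137 in NIMM 1 and 3 and 154, 105 and 146 in IMM 1, 2 and 8. Its difference was 1.59, with NIMM 4 the highest line, and at the lowest 1.32 with any 1 line left out. Atf5, another translationally controlled factor of this family, differed by 1.97 and the stress-inducible coregulator gene Nupr1 by 2.03. Cebpg, Cebpb, Atf3 and Jdp2, which encode bZIP factors, differed by 0.99, 0.70, 0.89 and 0.72. Among effectors, the asparagine synthetase gene Asns read 1399.5 to 1586 in the stress-high lines, against 485 to 787 in the stress-low lines, a difference of 1.29. Gpt2, a mitochondrial alanine transaminase, differed by 1.42, Cth, which makes cysteine from cystathionine, by 1.08, and Sesn2, an inhibitor of mTORC1 signalling under leucine shortage, by 1.43. The translation repressor gene Eif4ebp1 and the eIF2 phosphatase subunit gene Ppp1r15a (GADD34), which reverses the response, differed by 0.83 and 0.75. Not every listed gene took part: Fgf21 (-0.0099), Gdf15 (-0.068) and Stc2 (-0.071) overlapped between the sets, as did Ddit4 (0.63), an mTORC1 inhibitor that also responds to hypoxia. Vldlr lay under the intensity filter.

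ATF4 binds, as a heterodimer with C/EBP proteins, a composite element with the core TGATGNAA (N is any base). Promoter windows of 10 of the 17 higher genes that carry it are shown as examples of a feature that did not choose the genes. The sequences are from RefSeq on build GRCm38.p6, the build of the array annotation (mm10), are printed 5′ to 3′ on the strand of the gene, and lie within 250 bases before the annotated start. Capitals mark the match on either strand.
Chac1: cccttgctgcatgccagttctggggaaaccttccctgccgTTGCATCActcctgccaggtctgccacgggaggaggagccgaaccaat
Asns: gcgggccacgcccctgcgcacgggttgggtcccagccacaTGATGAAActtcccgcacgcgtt
Slc7a11: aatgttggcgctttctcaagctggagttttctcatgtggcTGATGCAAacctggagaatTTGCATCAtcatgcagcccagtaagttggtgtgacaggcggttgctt
Nupr1: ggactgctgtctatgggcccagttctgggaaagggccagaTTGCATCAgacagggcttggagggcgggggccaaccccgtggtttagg
Atf3: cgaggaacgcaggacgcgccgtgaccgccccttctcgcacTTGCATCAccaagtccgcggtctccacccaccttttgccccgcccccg
Herpud1: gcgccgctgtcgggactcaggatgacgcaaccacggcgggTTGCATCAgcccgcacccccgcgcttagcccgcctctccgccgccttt
Pck2: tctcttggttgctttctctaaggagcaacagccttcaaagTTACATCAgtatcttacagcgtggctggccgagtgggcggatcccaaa
Pycr1: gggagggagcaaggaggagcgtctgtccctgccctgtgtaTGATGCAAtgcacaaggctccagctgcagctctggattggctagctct
Jdp2: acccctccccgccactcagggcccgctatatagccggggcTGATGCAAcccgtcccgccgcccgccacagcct
Tars: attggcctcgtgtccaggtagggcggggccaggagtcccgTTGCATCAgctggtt
These windows lie at chr2:119351009-119351096 on the plus strand (Chac1), chr6:7693210-7693272 on the minus strand (Asns), chr3:50443614-50443719 on the minus strand (Slc7a11, with 2 matches on opposite strands), chr7:126625533-126625620 on the minus strand (Nupr1), chr1:191183396-191183483 on the minus strand (Atf3), chr8:94386277-94386364 on the plus strand (Herpud1), chr14:55540123-55540210 on the plus strand (Pck2), chr11:120643804-120643891 on the minus strand (Pycr1), chr12:85599343-85599415 on the plus strand (Jdp2) and chr15:11399659-11399713 on the minus strand (Tars). The motif occurred in 316 of 12172 genes considered that had a promoter sequence (2.60%). Among the 156 higher genes, 134 had a promoter sequence and 17 of these carried it (12.7%), against 0 of 44 among the 53 lower genes. The 7 carriers not printed were Ank2, Arid5b, Arl14ep, Chchd10, Gars, Sfxn4 and Tmtc4. In the ATF4 list it was present in 6 of 19 (31.6%), 1 of which, Fgf21, overlapped between the sets (-0.0099). Trib3, Ddit3 and Atf4 had no match in this window, which says only that these letters are absent there. For comparison, the E-box CACGTG was present in 6.72% of the higher and 11.4% of the lower genes with a promoter sequence, against 9.35% of all genes considered. A match is a sequence description and not evidence of binding.

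Transporters that bring amino acids into the cell formed a second block. Of 15 listed, 13 were above the filter, 9 were higher without overlap and 0 lower, and the median difference was 0.66. Slc7a11, the cystine-glutamate exchanger that supplies cysteine for glutathione, read 1791 in NIMM 4 and 1757, 1782 and 1656 in GKO-IMM 1, 2 and 3, against 260.3 and 384 in NIMM 1 and 3 and 280.5, 621 and 345 in IMM 1, 2 and 8. With 4.86-fold (log2 difference 2.28) it had the second largest difference of the named genes, and IMM 2 stood above the other stress-low lines. Its 2 transcript clusters on the array both gave higher values in the stress-high lines, the smaller difference being 1.28. The neutral amino acid transporter gene Slc1a4 read 639.9 in NIMM 4 and 531, 515 and 517 in GKO-IMM 1, 2 and 3, against 109.7 and 158 in NIMM 1 and 3 and 184, 168 and 259 in IMM 1, 2 and 8, a difference of 1.70, and the glutamine transporter gene Slc1a5 read 609.9 to 769 in the stress-high lines, against 287 to 368 in the stress-low lines. Both chains of the leucine importer were higher in every stress-high line: the light chain gene Slc7a5 differed by 0.86 and the heavy chain gene Slc3a2, which also pairs with Slc7a11, by 0.67. Slc7a1, a cationic amino acid transporter, Slc38a7, a lysosomal glutamine exporter, and Slc38a2, an amino acid-sensitive sodium-coupled carrier, differed by 0.66, 0.65 and 0.46. Slc38a1, Slc36a4, Slc7a6 and Slc43a1 overlapped between the sets, with differences from -0.033 (Slc43a1) to 0.13 (Slc7a6).

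Aminoacyl-tRNA synthetases charge tRNAs with their amino acids, mostly as separate cytosolic and mitochondrial enzymes, which were listed separately here. Of 20 cytosolic synthetase genes, 18 were above the filter with a row of their own, 12 were higher without overlap, 0 were lower, and the median difference was 0.44. The largest differences were those of Sars (0.84; 2207 to 2632 in the stress-high lines, against 1130.1 to 1549 in the stress-low lines), Cars (0.78), Lars (0.71), Nars (0.65) and Gars (0.62), the enzymes for serine, cysteine, leucine, asparagine and glycine. The list was divided: Dars, Hars, Rars, Qars and Farsa, for aspartate, histidine, arginine, glutamine and the alpha subunit for phenylalanine, differed by only -0.071, -0.062, -0.0017, 0.012 and -0.06, all with overlap. The 17 mitochondrial synthetase genes showed 2 higher and 3 lower without overlap and a median of 0.087. Xpot, which exports tRNAs from the nucleus, differed by 0.76.

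A further list covered serine and glycine synthesis and the one-carbon cycle, which supplies carbon units for nucleotides. In it, the folate enzymes named here differed by compartment. Of 15 listed genes above the filter, 8 were higher and 3 lower without overlap. Mthfd2, named below, also stands in the ATF4 list. The mitochondrial folate enzymes were higher: Mthfd2 read 1583 to 1683 in the stress-high lines, against 629 to 905 in the stress-low lines (difference 1.10), Aldh1l2 read 678 in NIMM 4 and 418, 428 and 338 in GKO-IMM 1, 2 and 3, against 191 and 203 in NIMM 1 and 3 and 145, 136 and 223 in IMM 1, 2 and 8 (difference 1.35), and Shmt2 differed by 0.57. Their cytosolic counterparts Shmt1 (-0.23) and Mthfd1 (-0.16) were slightly lower in all stress-high lines. In the serine branch, Phgdh, the first enzyme, and Psph, the last, differed by 0.68 and 1.16. Proline synthesis was also represented, by Pycr1 (1.31) and Aldh18a1 (1.22). Pck2, the mitochondrial enzyme that turns oxaloacetate into phosphoenolpyruvate, read 1079 in NIMM 4 and 839.7, 751 and 824 in GKO-IMM 1, 2 and 3, against 199.8 and 253 in NIMM 1 and 3 and 248, 216 and 314 in IMM 1, 2 and 8. Likeness to the median of the ATF4 list was ranked among genes outside that list, those without a proper symbol passed over. The profile of Pck2 over the 9 lines was the most alike, with Pearson's r = 0.997 and Spearman's rho = 0.967 over 9 lines, given as a description since the points share the same arrays. Next in likeness came Mia2 (r = 0.993), which encodes an ER exit-site protein, the collagen receptor gene Ddr2 (r = 0.993), Xpot (r = 0.993), Aldh18a1 (r = 0.99), Lars (r = 0.989), Arhgef2 (r = 0.988), Phf10 (r = 0.987), Eprs (r = 0.987) and Rab39b (r = 0.987). Of these 10 genes, Ddr2 read 1504 to 1813 in the stress-high lines, against 778 to 861 in the stress-low lines, and differed by 0.99. Rab39b differed by 1.25 in the transcript cluster used and by 0.26 in its other cluster.

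Antioxidant genes under NRF2 control were higher in the enzymes that make glutathione precursors and NADPH. Of 20 listed genes above the filter, 13 were higher and 2 lower without overlap, and the median difference was 0.45. Hmox1, the heme-degrading oxygenase and a target of both NRF2 and ATF4, read 2257 in NIMM 4 and 1711, 1721 and 1049 in GKO-IMM 1, 2 and 3, against 487 and 414 in NIMM 1 and 3 and 495, 371 and 587 in IMM 1, 2 and 8; the mean log2 intensity was 10.67 ± 0.46 in the stress-high lines and 8.86 ± 0.26 in the stress-low lines (SD, n = 4 and 5). GKO-IMM 3 was the lowest stress-high line for Hmox1, and its value remained above every stress-low line. Gclm, the regulatory subunit of the rate-limiting enzyme of glutathione synthesis, read 2328 in NIMM 4 and 2254, 2226 and 1894 in GKO-IMM 1, 2 and 3, against 779 and 904 in NIMM 1 and 3 and 747, 1089 and 850.2 in IMM 1, 2 and 8, a difference of 1.32, while the catalytic subunit gene Gclc differed by 0.73. Srxn1, which repairs peroxiredoxins, Osgin1, an NRF2-responsive growth inhibitor gene, and Nqo1, a quinone reductase, differed by 1.26, 1.20 and 0.93. The NADPH-producing enzymes Pgd (0.71), Me1 (0.53) and G6pdx (0.46) and the thioredoxin and glutathione reductases Txnrd1 (0.48) and Gsr (0.44) were also higher without overlap. The glutathione peroxidase genes Gpx1 (-0.35) and Gpx4 (-0.16) were lower in all stress-high lines, and the RNA of NRF2 itself (Nfe2l2) overlapped at a difference of -0.12. The core of the antioxidant response element, TGACNNNGC, is shown for the promoters of Gclm and of Mafg, a small MAF partner of NRF2 that differed by 0.51.
Gclm: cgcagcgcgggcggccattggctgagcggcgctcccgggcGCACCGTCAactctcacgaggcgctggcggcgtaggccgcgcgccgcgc
Mafg: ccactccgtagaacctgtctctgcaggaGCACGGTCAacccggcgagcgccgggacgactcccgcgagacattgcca
They lie at chr3:122245383-122245471 on the plus strand and chr11:120633721-120633797 on the minus strand, from the same source as above, with the match in capitals. This core was present in 20 of 134 higher genes with a promoter sequence (14.9%), 5 of 44 lower genes (11.4%) and 13.6% of all genes considered, and in 4 of 16 genes of the antioxidant list (25%); the motif was added after the data had been seen.

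Among genes in none of the lists, 3 with roles in iron and heme handling were also higher, of which Blvrb and Slc48a1 were picked with their values known. The iron exporter gene Slc40a1 (ferroportin) read 385 in NIMM 4 and 396, 334 and 312 in GKO-IMM 1, 2 and 3, against 93.2 and 116 in NIMM 1 and 3 and 116, 174 and 86.4 in IMM 1, 2 and 8, a difference of 1.64 with no overlap. The biliverdin reductase gene Blvrb, which acts after Hmox1 in heme breakdown, differed by 1.01, and the heme transporter gene Slc48a1 by 0.57. Also in no list, Cyb5r2, a cytochrome b5 reductase gene, read 393 in NIMM 4 and 246, 203 and 208 in GKO-IMM 1, 2 and 3, against 57.0 and 70.2 in NIMM 1 and 3 and 63.7, 39.2 and 64.0 in IMM 1, 2 and 8 (difference 2.13), and the retinol-oxidizing dehydrogenase gene Adh7 read 407 in NIMM 4 and 318, 288 and 221 in GKO-IMM 1, 2 and 3, against 98.0 and 105 in NIMM 1 and 3 and 68.0, 134 and 64.1 in IMM 1, 2 and 8 (difference 1.74). NIMM 4 was the highest line for both.

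The ER branch of the unfolded protein response was less evident and depended on the line. Of 23 genes above the filter, 7 were higher without overlap and 0 lower, but the median difference was 0.14 and 1 gene alone reached 0.5. This was Herpud1, a component of ER-associated degradation with ATF4-responsive expression, at 1393 in NIMM 4 and 884, 923 and 801 in GKO-IMM 1, 2 and 3, against 354 and 417 in NIMM 1 and 3 and 520.3, 452 and 575 in IMM 1, 2 and 8 (difference 1.10). Hspa5, the main ER chaperone (BiP), read 986 in NIMM 4 and 847, 837 and 731 in GKO-IMM 1, 2 and 3, against 701 and 701 in NIMM 1 and 3 and 814, 819.5 and 782 in IMM 1, 2 and 8, and the sets overlapped because GKO-IMM 3 lay below IMM 1, 2 and 8. Xbp1, the transcription factor activated by IRE1, differed by 0.30, and the sensor genes Ern1 (IRE1) and Eif2ak3 (PERK) by 0.20 and 0.29. Without NIMM 4 the difference of Ern1 was 0.11 and the list's median 0.077. The median of the list in NIMM 4 stood 0.25 above the mean of the 9 lines, and in GKO-IMM 1, 2 and 3 at 0.0078, 0.031 and -0.024, against -0.17 and -0.11 in NIMM 1 and 3 and 0.048, 0.0033 and -0.056 in IMM 1, 2 and 8. The list's median difference was 0.33 within naive hosts (NIMM 4 minus NIMM 1 and 3) and -0.0032 within immunized hosts (GKO-IMM minus IMM).

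**Figure D2:**
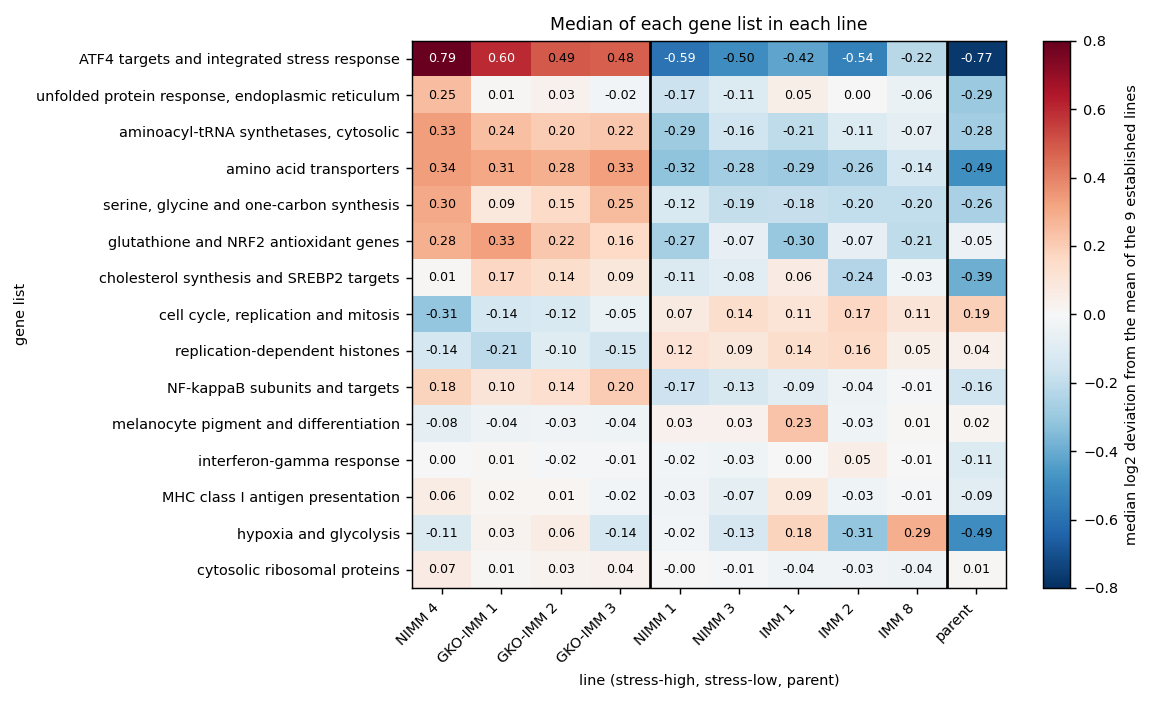
Median of each gene list in each line, as log2 deviation from each gene's mean over the 9 established lines (colour and printed value). Columns are the stress-high lines, the stress-low lines and the parent line, split by black lines, and rows are gene lists. The ATF4 list runs from 0.48 to 0.79 in the stress-high lines and from -0.59 to -0.22 in the stress-low lines, while the interferon-gamma and ribosomal protein lists stay within 0.1 of 0 in the 9 lines.

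NIMM 4 was the most strongly marked of the stress-high lines. Of the 156 higher genes it exceeded all 3 GKO-IMM lines in 104, lay within their range in 36 and below it in 16. These counts carry no minimum difference, and the like share over all genes is not given here. By a stricter rule, over all genes, 77 (0.471%) were above every GKO-IMM line and at least 0.5 above their mean, and 21 (0.128%) were below by that rule. Ddit3 was 1.06 above the GKO-IMM mean on the log2 scale, Cyb5r2 0.85, Herpud1 0.68, Cebpb 0.67 and Trib3 0.67. Slc7a11 (0.049), Asns (0.096), Gclm (0.14) and Chac1 (-0.081) stood close to the GKO-IMM lines. In the ER list, again without a minimum difference, NIMM 4 was above all 3 GKO-IMM lines in 19 of 23 genes and below all 3 in 0. Examples are Sdf2l1 (0.51), Dnajb9 (0.52) and Sel1l (0.45). Cholesterol synthesis ran the other way: Hmgcs1 was -0.40, Fdft1 -0.31 and Fdps -0.30 relative to the GKO-IMM mean, and the list's median was -0.15. The zinc importer gene Slc39a10 (-0.75), the checkpoint kinase gene Chek1 (-0.50) and Map2k6 (-0.54) were also lower in NIMM 4 than in GKO-IMM lines. The number of arrays limits these values, since NIMM 4 is a single line.

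**Figure D3:**
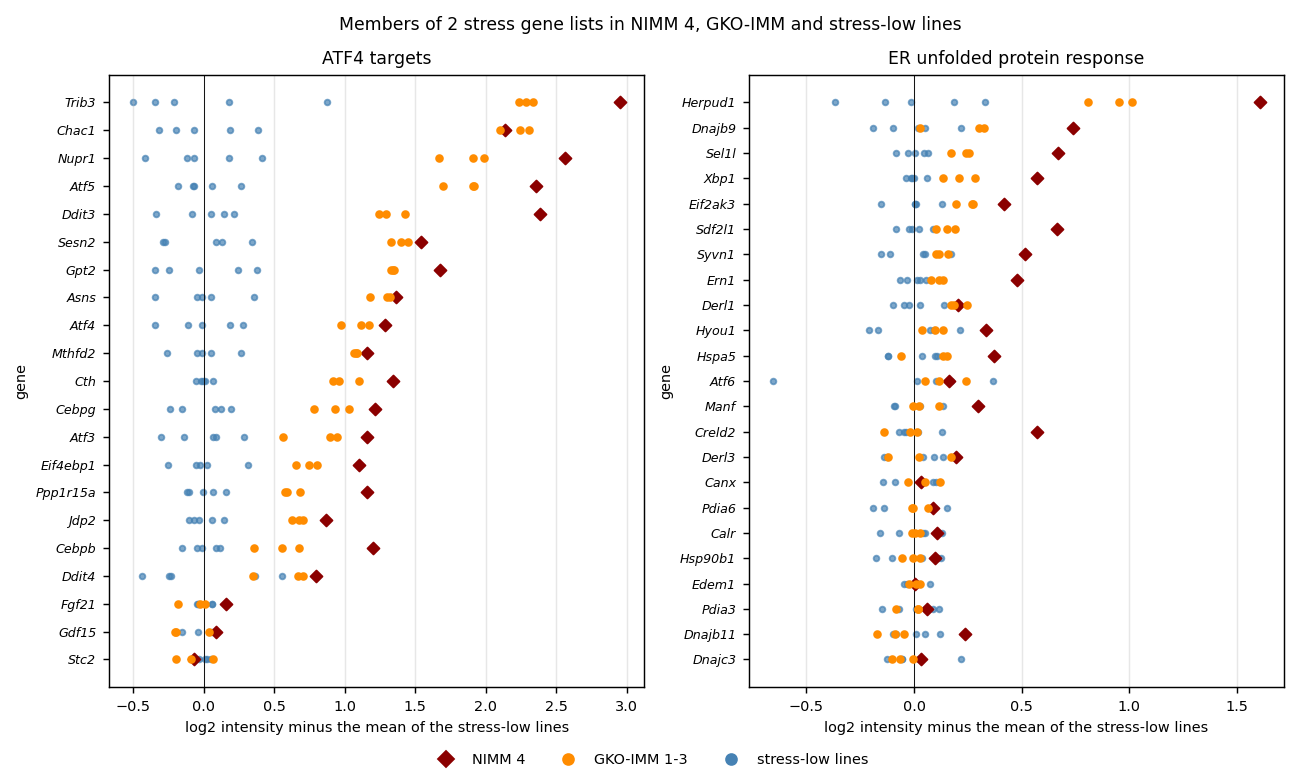
Members of the ATF4 list (left) and the ER unfolded protein response list (right), 1 gene per row, as log2 intensity minus the mean of the stress-low lines. Dark red diamonds are NIMM 4, orange points GKO-IMM 1, 2 and 3, and blue points the 5 stress-low lines. For most genes of the ATF4 list all stress-high lines lie to the right of the blue points, and for the ER genes mainly NIMM 4 does.

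The difference was also split by host, into naive hosts (NIMM 4 minus the mean of NIMM 1 and 3) and immunized hosts (GKO-IMM minus IMM). Since the sets and the genes were chosen on all 9 lines together, a like direction in both hosts is fixed by that choice, and the values describe only how the difference is divided. Of the 156 higher genes 109 differed by at least 0.5 in both kinds of host, 25 only in naive and 22 only in immunized hosts. Among all genes, 1.92% were higher and 1.13% lower by at least 0.5 in naive hosts, and 0.991% and 0.538% in immunized hosts. Trib3 differed by 3.38 in naive and 2.01 in immunized hosts, Slc7a11 by 2.50 in naive and 2.14 in immunized hosts, and Atf4 by 1.51 in naive and 0.94 in immunized hosts. The naive difference was the larger in 116 of the 156 genes. Of the 53 lower genes, 25 differed by at least 0.5 in both, 10 only in naive and 18 only in immunized hosts. Slc44a3, for example, a choline transporter-like gene, differed by -0.34 in naive and -1.49 in immunized hosts. Genes for which the immunized difference was the larger include Blvrb (0.60 in naive, 1.34 in immunized hosts), the deubiquitinase gene Zranb1 (0.34 in naive, 1.11 in immunized hosts) and the corepressor gene Ctbp2 (0.044 in naive, 0.88 in immunized hosts). By chromosome, which was looked at after the values had been seen, the higher genes were spread unevenly: chromosome 7 held 21 (13.5%, against 8.01% of all genes), chromosome 10 held 16 (10.3%, against 4.72%), chromosome 1 held 15 (9.62%, against 5.52%) and chromosome 16 held 0 (against 2.89%).

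**Figure D4:**
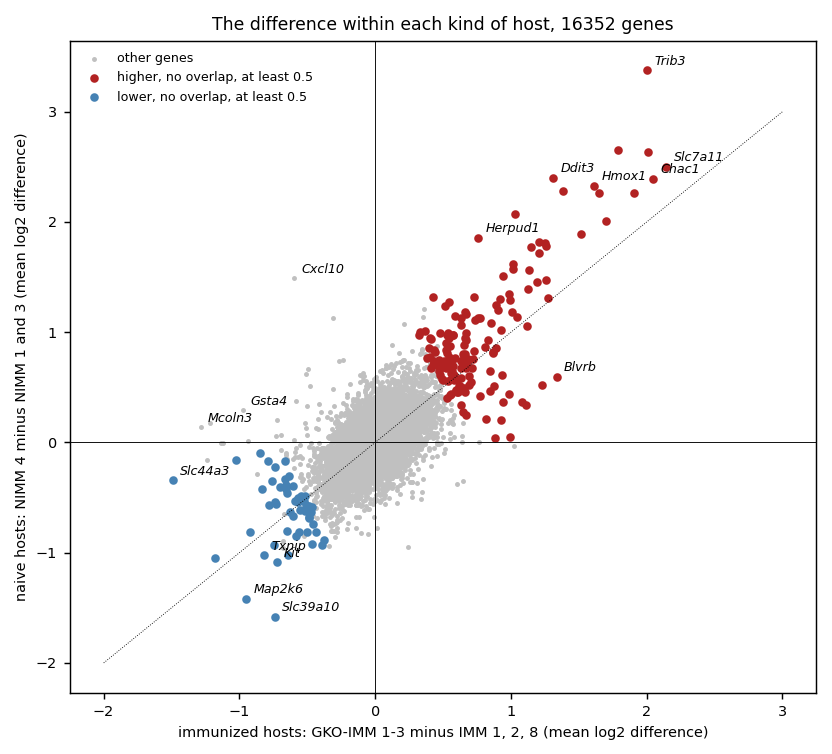
Difference within naive hosts (vertical axis, NIMM 4 minus the mean of NIMM 1 and 3) against difference within immunized hosts (horizontal axis, GKO-IMM minus IMM), both mean log2, 1 point per gene. Red and blue mark genes higher and lower in the stress-high lines without overlap by at least 0.5, grey all others, and the dotted line marks equal differences. Ddit3 and Herpud1 lie above the dotted line and Blvrb below it, and Gsta4, Mcoln3 and Cxcl10 have opposite signs in the 2 hosts.

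Replication and mitosis genes were lower in the stress-high lines. Of 33 cell cycle genes above the filter, 24 were lower without overlap (against 6.44% of all genes) and 0 higher, although 1 alone reached a difference of 0.5, and the median was -0.31. Cdc6, which loads the replicative helicase, read 307 in NIMM 4 and 373, 385 and 392 in GKO-IMM 1, 2 and 3, against 603 and 561 in NIMM 1 and 3 and 558, 572 and 465 in IMM 1, 2 and 8, a difference of -0.60; the mean log2 intensity was 8.50 ± 0.16 in the stress-high lines and 9.10 ± 0.14 in the stress-low lines (SD, n = 4 and 5). The helicase subunit gene Mcm4 read 594 to 781 in the stress-high lines, against 858 to 1067 in the stress-low lines, and the thymidine kinase gene Tk1 409.8 to 591 in the stress-high lines, against 636 to 742 in the stress-low lines. Rrm2 and Tyms, which make DNA precursors, differed by -0.42 and -0.41, and the mitotic genes Bub1b and Aurkb by -0.46 and -0.37. NIMM 4 was the lowest line for each of these genes. Ccnd1, the G1 cyclin, overlapped at 0.12, as did Myc at -0.0075. Of 7 replication-dependent histone genes above the filter, out of 22 listed, 5 were lower without overlap, H2bc12 with 138 to 183 in the stress-high lines, against 212 to 254 in the stress-low lines. In the list of p53 targets and DNA repair genes, 6 of 23 were lower (against 6.44% of all genes), among them Brca1 (-0.51) and Fancd2 (-0.34), and 0 were higher. Mdm2 (0.39) and Cdkn1a (0.30) overlapped.

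**Figure D5:**
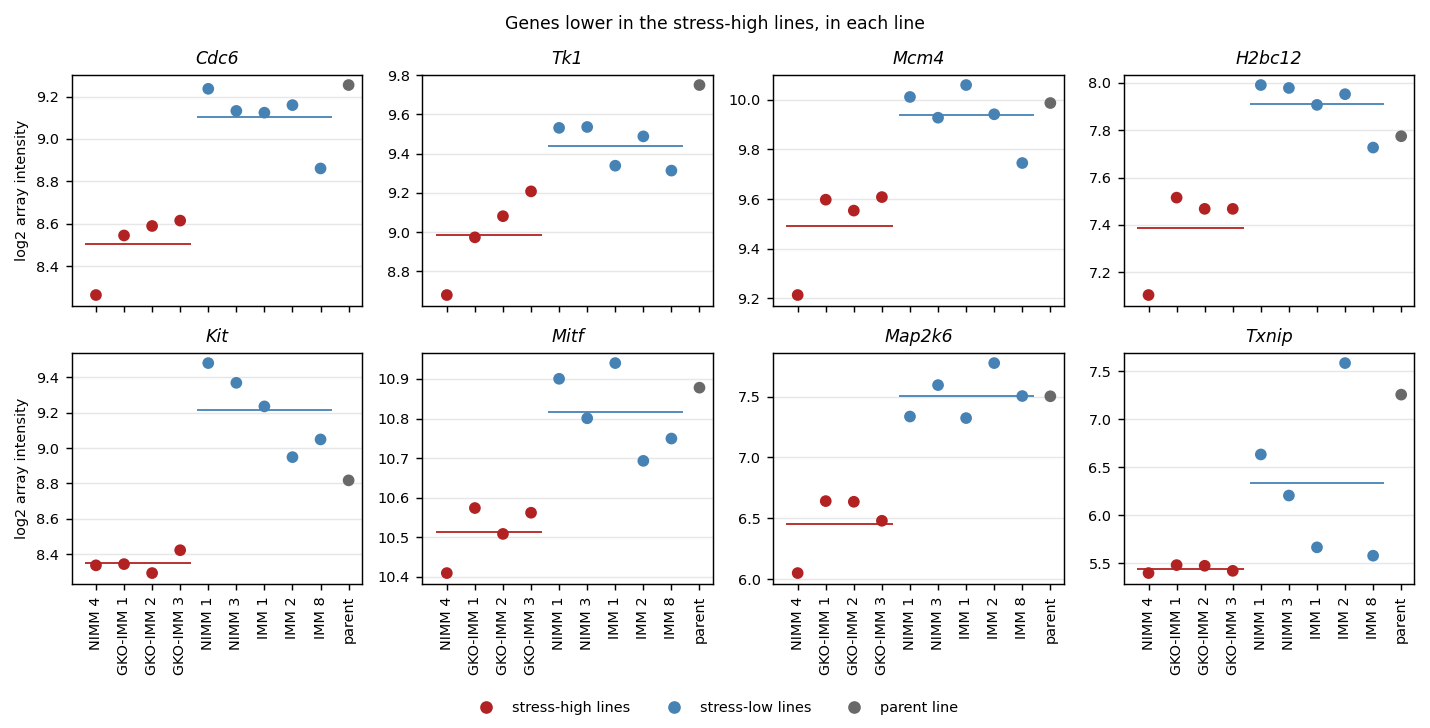
Log2 array intensity of 8 genes lower in the stress-high lines (1 array per line; each panel has its own scale). Red points are the 4 stress-high lines, blue points the 5 stress-low lines and the grey point the parent line, with set means as lines. Cdc6, Tk1 and Mcm4 are lowest in NIMM 4, and Txnip spreads widely among the stress-low lines.

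Other lower genes had varied roles. Map2k6, a kinase that activates p38, read 66.2 in NIMM 4 and 99.8, 99.5 and 89.2 in GKO-IMM 1, 2 and 3, against 162 and 193 in NIMM 1 and 3 and 160.2, 219 and 182 in IMM 1, 2 and 8, a difference of -1.06, and Slc39a10, a zinc importer, read 348 in NIMM 4 and 579, 563 and 611 in GKO-IMM 1, 2 and 3, against 993 and 1092 in NIMM 1 and 3 and 1043, 972 and 918 in IMM 1, 2 and 8, a difference of -0.96. Both were lowest in NIMM 4. Kit, the receptor for stem cell factor in melanocytes, read 323 in NIMM 4 and 325, 314 and 343 in GKO-IMM 1, 2 and 3, against 714 and 661 in NIMM 1 and 3 and 603, 494 and 529.7 in IMM 1, 2 and 8, with the stress-high lines close together at a difference of -0.87. Mitf, the lineage's master transcription factor, read 1360.4 to 1524 in the stress-high lines, against 1656 to 1965 in the stress-low lines, and was lower without overlap at a difference of -0.30. Of 19 melanocyte genes above the filter 5 were lower and 1 higher without overlap; Mc1r (-0.39) and Gpr143 (-0.36) were among the lower, and the list's median was -0.074. Deptor, an inhibitor of mTOR, differed by -0.83, and the creatine-synthesis gene Gamt by -0.77. Txnip, a thioredoxin-binding protein gene, differed by -0.89, with values of 42.1 to 44.6 in the stress-high lines, against 47.8 to 192 in the stress-low lines, and by -0.58 without IMM 2. Among secreted or surface proteins were Angpt2, a ligand of the receptor Tie2, with -0.72, the heparan sulfatase gene Sulf2 with -0.69, angiotensinogen (Agt) with -0.68, and the membrane protein gene Emp1 with -0.66. Further lower genes by this measure were the adaptor gene Tom1l2 (-0.85), the endocytic receptor gene Cubn (-0.70), the efflux transporter gene Abcg2 (-0.70) and the histone gene H4f16 (-0.67), whose probes may also read near-identical histone copies. The other transcript cluster of H4f16 differed by only -0.14.

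NF-κB subunits were moderately higher. Of 17 genes of that list above the filter, 9 were higher without overlap and 0 lower, with a median of 0.27. Nfkb2 read 213 to 239 in the stress-high lines, against 143 to 180.3 in the stress-low lines (difference 0.56), and Relb and Nfkb1 differed by 0.53 and 0.52. The inhibitor genes Nfkbie (0.51) and Nfkbib (0.32) were higher too, whereas the rapid response genes Nfkbia (-0.065) and Tnfaip3 (-0.078) and the chemokine gene Cxcl1 (0.024) overlapped. Mitochondrial chaperone and protease genes were higher without overlap in 4 of 10 (against 6.75% of all genes), including Hspa9 (0.43) and Lonp1 (0.35). The list's median difference was only 0.055, and its line medians overlapped between the sets.

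Cytosolic heat shock, interferon and antigen presentation genes did not follow the division as groups. In the heat shock list 0 of 10 genes were higher without overlap, and Hsph1 (-0.35) and Dnajb1 (-0.33) were lower. Among 18 IFN-γ response genes, 0 were higher and 0 lower without overlap, with a median of 0.012. The other 8 of the 26 listed were not measured and are not covered by this. Gbp2 had no row of its own, and Gbp3, Gbp4, Gbp5, Gbp6, Iigp1, Igtp and Cxcl9 lay under the filter. Of 15 genes of MHC class I antigen presentation, 2 were higher and 0 lower. B2m, the light chain of MHC class I, read 4117 to 4442 in the stress-high lines, against 4006 to 4581 in the stress-low lines, and its heavy chain partner H2-K1 read 84.8 to 108 in the stress-high lines, against 62.7 to 106 in the stress-low lines; the checkpoint ligand gene Cd274 (PD-L1) and the receptor gene Ifngr1 differed by -0.053 and 0.02. Cxcl10, a chemokine induced by interferon, was high in single lines of both sets (335 in NIMM 4 and 181, 159 and 176 in GKO-IMM 1, 2 and 3, against 119 and 119 in NIMM 1 and 3 and 151, 488 and 237 in IMM 1, 2 and 8). Hypoxia and glycolysis genes differed from line to line, with 0 higher and 1 lower of 27 without overlap. Vegfa, the angiogenic growth factor, illustrates this at 649 in NIMM 4 and 658, 663 and 563 in GKO-IMM 1, 2 and 3, against 431 and 364 in NIMM 1 and 3 and 564, 222 and 635 in IMM 1, 2 and 8. Cholesterol synthesis was higher without overlap in 3 of 23 genes and lower in 0 (against 6.75% and 6.44% of all genes). The list's median was 0.19, and the largest difference was in Lss (0.50), the oxidosqualene cyclase.

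Fatty acid synthesis had 5 genes higher and 1 lower of 12 without overlap, with a median of 0.085, and the largest difference in Me1, which also stands in the antioxidant list. Over all genes, 6.75% were higher and 6.44% lower without overlap. In the remaining lists the higher and lower counts were 5 and 1 of 26 for lysosome and autophagy genes, 5 and 0 of 30 for cytosolic ribosomal proteins, and 2 and 5 of 30 for extracellular matrix and adhesion. They were 1 and 2 of 26 for the mitochondrial respiratory chain, 1 and 1 of 14 for mTORC1 and growth regulators, 1 and 1 of 16 for MAPK output, 1 and 0 of 16 for type I interferon genes, and 0 and 0 of 15 for melanoma dedifferentiation. Among them the autophagy receptor gene Sqstm1, also an NRF2 target, differed by 0.37, the lysosomal transcription factor gene Tfe3 by 0.49, the protease inhibitor gene Timp3 by 0.84, and the integrin gene Itga4 by -0.54.

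The parent line, which the choice of sets did not use, sat nearer the stress-low lines for most of these genes. Of the 156 higher genes, the parent's single value lay beyond the stress-high lines in 1, within them in 6, between the sets in 39, within the stress-low lines in 78 and beyond them in 32. For the 53 lower genes the numbers were 3, 5, 15, 18 and 12 in the same order. Trib3 read 53.4, Chac1 48.9, Atf4 273 and Asns 462 in the parent, all below every tumour-derived line. The parent's median of the ATF4 list was -0.77 relative to the mean of the 9 lines, below the stress-low lines, which ran from -0.59 to -0.22. For the antioxidant list it was -0.050, below the stress-high lines (0.16 to 0.33) and above the stress-low lines (-0.30 to -0.067). Members of that list were mixed: Srxn1 at 371 and Gclm at 1135 lay between the sets, Hmox1 at 505 and Osgin1 at 384 within the stress-low lines, and Nqo1 at 25.9 below all 9 lines. Adh7 read 255, within the stress-high range. Slc44a3 and Gsta4 also lay below both sets in the parent, at 41.5 and 57.6. For the replication gene Cdc6 the parent read 611, above all 9 tumour-derived lines.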

How the data were processed

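Each of the 10 lines had 1 Affymetrix array (MoGene-2_0-st, per the file headers), hybridised with biotinylated cRNA from Trizol-extracted total RNA per the labels' protocols. The authors deposited linear intensity values per transcript cluster, on nearly 1 distribution on every array, and log2 values that equal the log2 of those intensities minus each cluster's median over the 10 arrays (largest gap 2.23e-06). The sources used here do not give how background was corrected or probes were summarized, or with which software. The log2 intensities were analysed without further normalization. Of 33793 transcript clusters, 24732 carried 1 gene symbol; each of 23360 genes took its brightest cluster by mean of the 9 lines, and 16352 genes at or above percentile 30 of that mean (intensity 26.7) were kept. Symbols and promoters came from RefSeq (GRCm38.p6).

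The sets, gene lists and named genes were chosen with earlier results of these data known, and the sets follow the values compared, so no test or p-value was computed. Each line is 1 array, and SDs measure spread between lines of a set. Named genes are the 15 with the largest difference without overlap in each direction, up to 8 of each list by size, 18 fixed genes and the 10 most like the ATF4 list, and some of them are not reported here; 7 higher and 3 lower genes without a proper symbol, among others of that kind, were passed over. Any other gene named was chosen after its values were seen. Alternatives were quantile normalization, array centring, 3 filters and scales, cluster means, subsets of lines and each line left out. The calculation was tested on simulated data. Python 3.11.15, numpy 2.4.6, pandas 2.3.3 and matplotlib 3.10.9 were used.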

Additional observations from a re-analysis of the deposited data

Results flagged for a closer look

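Single lines stood far from the other lines of their set in 26 of 352 checks of named genes and list medians. The gap to the nearest line then exceeded Dixon's critical share of the set's range, used here only as a cutoff. The sets and named genes were chosen with these values known and the checks share arrays, so no chance rate is given. NIMM 4, the only naive-host line among the stress-high lines, was the line in 16 of the 26. On the log2 intensity scale it stood above the 3 GKO-IMM lines for Trib3 (9.56), Ddit3 (9.43), Gpt2 (8.70), Slc1a4 (9.32), Slc3a2 (11.26), Ern1 (8.0), Sdf2l1 (9.30), Sel1l (9.83), Ddr2 (10.82), Tfe3 (9.19), Mcoln3 (6.57) and Cxcl10 (8.39). It stood below them for Slc39a10 (8.44), Chek1 (7.70), H2bc12 (7.10) and Mcm4 (9.21).

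Among the other stress-high lines, GKO-IMM 3 was apart for Nfkb1 (8.94, high), Vegfa (9.14, low) and Cdkn1a (10.76, low), and GKO-IMM 1 for Ifngr1 (8.09, high). Among the stress-low lines, IMM 8 was apart for Slc38a7 (8.55, high), IMM 2 for Nfkb2 (7.49, high) and IMM 1 for Shmt2 (10.85, low). The medians of 3 lists, as log2 deviations from the mean of the 9 lines, had a stress-low line apart: the melanocyte list in IMM 1 (0.23), the one-carbon list in NIMM 1 (-0.12) and the type I interferon list in NIMM 1 (-0.066).

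Of the 144 named genes checked, 5 ran in opposite directions in the 2 kinds of host. For these, NIMM 4 lay outside both other NIMM lines on one side and all GKO-IMM lines outside all IMM lines on the other. This rule has no minimum difference, and the like share over all genes is not given here. The difference between hosts was not tested. Gsta4, a glutathione transferase gene, differed on the log2 scale by 0.29 in naive hosts and -0.97 in immunized hosts, from intensities of 423 in NIMM 4 and 297, 269 and 268 in GKO-IMM 1, 2 and 3, against 328 and 365 in NIMM 1 and 3 and 649.9, 519 and 480.4 in IMM 1, 2 and 8. Mcoln3, a lysosomal cation channel gene, differed by 0.14 in naive and -1.28 in immunized hosts. Nfkbia differed by 0.33 in naive and -0.30 in immunized hosts, Pdgfrb by 0.44 in naive and -0.21 in immunized hosts, and Rars by 0.072 in naive and -0.037 in immunized hosts.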

How the results depend on the processing

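No paired analysis was possible because the sets are not groups of the labels and their differences come from no test. The count of 156 higher genes stayed between 129 and 197 under every alternative run except a minimum difference of 1, which left 33, with 3 lower genes in place of 53. The lower count was 35 with 16 added to the intensities, 94 with 15 subtracted and 81 with the IMM lines alone as stress-low. Leaving out each line in turn gave 141 to 170 higher and 42 to 66 lower genes. Of the gene lists the text leads with, the one-carbon median was 0.57 with the filter at percentile 50, 0.46 with NIMM 1 and 3 alone as stress-low and 0.28 with the IMM lines alone. The histone median was -0.15 without a filter, -0.29 with the IMM lines alone, and -0.39 to -0.28 over the lines left out. The NF-κB median was 0.078 without a filter, and the transporter median was 0.60 with the GKO-IMM lines alone, the lowest of 0.60 to 0.69 over the lines left out. The cause was not tested, beyond the change in genes or lines that each setting makes. No list median or gene difference without overlap changed sign under the alternatives run. For genes without overlap, no subset of lines could have changed the sign. Of 2736 gene differences, 2699 moved by less than the spread between lines. Much of this was fixed in advance: the filters did not touch gene differences, and leaving out 1 line cannot move a mean that far. The number of arrays limits the precision, genes near background (intensities of about 30) have compressed differences, and a fold on this scale understates changes of dim genes.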
